A study of Aspergillus nidulans with 2 samples.

Results

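Aspergillus nidulans (Emericella nidulans) makes asexual spores, called conidia, on conidiophores, and sexual spores in fruiting bodies called cleistothecia. In the textbook account of conidiation, the upstream factors known as fluffy gene products, FlbC among them, switch on brlA, BrlA switches on abaA, and AbaA acts while the spore-forming phialides differentiate. Spore wall proteins and pigments follow. The sexual route depends on other transcription factors, SteA among them, and is held back in light by the kinase ImeB. Hyphae in shaken liquid culture usually stay vegetative, unless starved or otherwise stressed.

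This account covers 9 genes of these routes: flbC, brlA, abaA, medA, rodA and ayg1 of conidiation, its spore coat or spore pigment, and steA, esdC and imeB of sexual development. Probes were taken by gene symbol, and every probe carrying 1 of the symbols in the platform annotation was kept. The list of genes was drawn up with earlier results of these data known, so its counts beside those over all probes are descriptions. This gave 13 of the 3533 probes printed, 9 for the conidiation genes and 4 for the sexual genes. The genes are flbC (ANIA_02421), brlA (ANIA_00973), abaA (ANIA_00422), medA (ANIA_06230), rodA (ANIA_08803), ayg1 (ANIA_09171), steA (ANIA_02290), esdC (ANIA_09121) and imeB (ANIA_06243).

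Mycelium of strain FGSC 26, grown for 18 h at 37 °C in minimal-nitrate medium with yeast extract, was moved to fresh minimal-nitrate medium and sampled 6 h later. The exposed culture received 0.8 mM menadione, a quinone whose redox cycling in the cell yields superoxide, as its sodium bisulfite compound, and the control culture received none. RNA from the exposed and the control mycelium was hybridised together on each of 2 cDNA arrays, with menadione RNA in Cy5 on the flip array and in Cy3 on the flop array. The question of the comparison is which transcripts differ after menadione exposure. Whether separate cultures lie behind the arrays is not said in the labels. For a single probe, the p-values therefore cover the spread from array to array alone, possibly a technical spread. The number of arrays, 2, limits the precision.

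Each value is a deposited ratio, read here as log2 of menadione over untreated. This direction is likely but not stated: the menadione RNA is the first channel of both samples. The columns ran the same way, with a Pearson correlation of 0.844 across 2265 probes, which are not independent replicates. That correlation bears on whether the columns share a direction, not on which direction it is. If the ratios ran as untreated over menadione, higher and lower would change places for every gene below. If both columns were red over green, the flop values would have to change sign, and no member would then pass the test. The logarithm's base is not stated either, and every fold given here assumes base 2. Read as natural logarithms, the lower signal of flbC would be 38.5-fold and that of esdC 9.49-fold. Array medians over the 2265 probes were -0.02 (flip) and 0.10 (flop), so any centring done before deposit left them near 0. In a whole-mycelium extract, a change in the share of differentiating hyphae and a change in RNA per hypha cannot be told apart.

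Of the 13 probes, 8 had a ratio on both arrays, 2 on the flip array alone and 3 on neither. Over all 3533 probes the corresponding shares were 64.1%, 22.2% and 13.6%. The probes with both values stood for 8 genes, each by 1 probe. Both brlA probes were empty on both arrays, so the central activator of conidiation has no value here. An empty cell gives no level, and the sources used here do not give the rule that left cells empty.

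Among the 8 measured genes, flbC, abaA, steA and esdC fell and imeB rose with menadione, each by its tested probe, whereas rodA and ayg1 did not pass the test. The tested medA probe was higher, but another medA probe pointed the other way. For steA, another probe, valued on the flip array alone, read 0.15 there, near no change. The mean ratios ran from -3.65 for flbC to 1.62 for imeB, with a median of -0.80, against 0.04 over the 2265 probes. The test was limma against a ratio of 0, with Benjamini-Hochberg adjustment over the 2265 probes, and 24.6% of those probes passed an adjusted p of 0.05. The 4 lower members compare with 12.4% of probes called lower and the 2 higher probes, of imeB and medA, with 12.2% called higher. All 8 members had the same sign on both arrays, as did 82.2% of probes, and 6 of them lay below 0 on both, as did 39.4%. A 2-fold limit was passed the same way on each array by flbC, steA, esdC and imeB, 4 of 8, against 18.2% of the 2265 probes. The 3 lower genes compare with 9.36% of probes that far down and the single higher gene, imeB, with 8.83% that far up. The passing members had limma adjusted p-values between 0.0351 and 0.0474, and 0.0351 was the smallest reached by any probe. With probes valued on a single array kept in the fit, esdC, steA and imeB still passed, and abaA (limma adjusted p = 0.0549), flbC (0.0567) and medA (0.0603) did not. Without moderation of the variances no member passed, with 4 at an unadjusted p under 0.05.

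**Figure D1:**
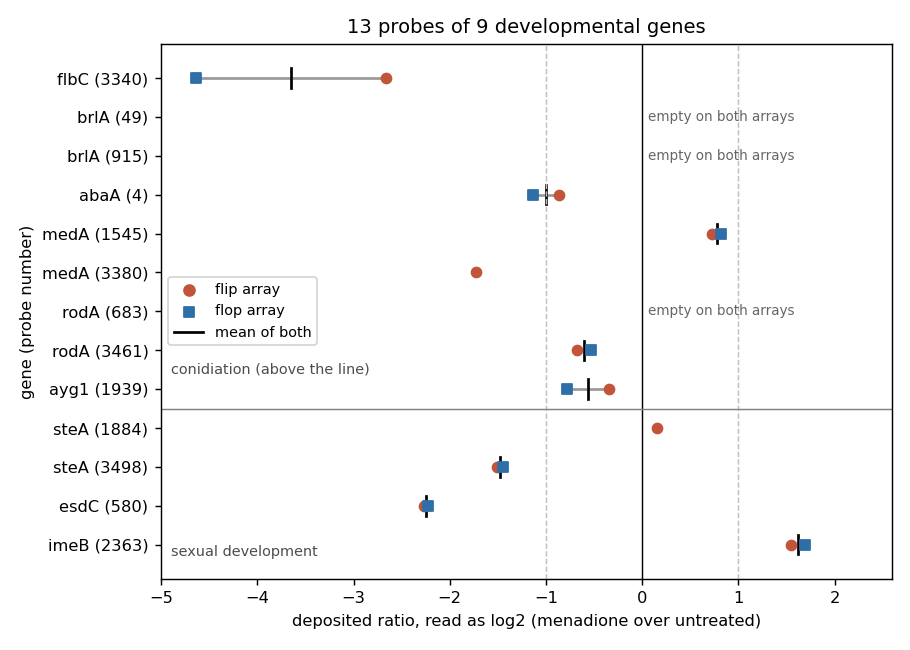
Deposited ratios, read as log2 of menadione over untreated (horizontal axis), of the 13 probes (vertical axis, probe number in brackets). Circles are the flip array, squares the flop array, black ticks the mean of both, and dashed lines mark 2-fold. The array values of esdC lie 0.04 apart and those of flbC 1.98 apart, and 3 probes hold no value. With the flop sign turned, the means of flbC, abaA, medA, ayg1 and imeB would change sign.

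FlbC is a zinc finger protein that acts upstream of brlA. Its probe read -2.66 (flip) and -4.64 (flop). Both values are far below 0, and the flop value is the lower by 1.98. The mean of -3.65 ± 1.40 (SD, n = 2) corresponds to a 12.6-fold lower signal (limma adjusted p = 0.0440), and it ranked 14 from the bottom of 2265 probes. The difference between the arrays was large for this probe: 98.4% of all probes, and 85.9% of the 85 probes with a mean of -2 or less, had a smaller one. The sign was thus shared by both arrays, but the size was measured loosely.

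AbaA is the transcription factor that follows BrlA. Its probe read -0.86 (flip) and -1.13 (flop), a mean of -0.995 ± 0.19 (SD, n = 2) and 1.99-fold lower (limma adjusted p = 0.0425). The arrays differed by 0.27, near the median difference of 0.28 over all probes. The flip value fell short of 2-fold.

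MedA is a developmental modifier that affects the timing of brlA expression and is also needed for sexual development. Its measured probe read 0.73 (flip) and 0.82 (flop), a mean of 0.78 ± 0.06 (SD, n = 2) and 1.71-fold higher (limma adjusted p = 0.0474). Another medA probe held a flip value only, -1.73. The probes of this gene therefore pointed in opposite directions on the same array, and no single direction can be given for medA. Averaging every medA value per array gave -0.50 (flip) and 0.82 (flop), a mean of 0.16 ± 0.93 (SD, n = 2; limma adjusted p = 0.783). The flip average holds both probes and the flop value the tested probe alone, so this spread also holds the difference between probes. In that limma fit 0 of 1455 genes passed, with 589 at an unadjusted p under 0.05. Averaging only probes with both values leaves the ratios of medA and flbC as they are. In that fit 19.0% of 1455 genes passed, and medA stood at an adjusted p of 0.0507 and flbC at 0.0552 by limma.

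The downstream genes of the spore surface showed smaller ratios. RodA is the hydrophobin that forms the rodlet layer on conidia, and its measured probe read -0.68 (flip) and -0.53 (flop). The mean was -0.61 ± 0.11 (SD, n = 2), which did not pass (limma adjusted p = 0.0713), and the other rodA probe was empty on both arrays. In Aspergillus fumigatus, Ayg1 is an enzyme of conidial pigment synthesis. The ayg1 probe read -0.35 (flip) and -0.78 (flop), a mean of -0.57 ± 0.30 (SD, n = 2; limma adjusted p = 0.116). The values of rodA and ayg1 overlapped, so their order cannot be given.

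The tested probes of the sexual genes were close between arrays, with SDs of 0.03 to 0.10, against a median SD of 0.20 over all probes. Those of the conidiation genes medA (SD 0.06) and rodA (SD 0.11) were about as close. EsdC is a protein needed early in sexual development. Its probe read -2.27 (flip) and -2.23 (flop). Both arrays gave nearly the same value, and the mean of -2.25 ± 0.03 (SD, n = 2) corresponds to 4.76-fold lower (limma adjusted p = 0.0351), at rank 66 from the bottom. Of the 138 probes with a mean at least 2 in size, 3.62% had arrays as close together or closer.

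SteA is a homeodomain transcription factor required for cleistothecium formation. Its measured probe read -1.51 (flip) and -1.45 (flop), a mean of -1.48 ± 0.04 (SD, n = 2) and 2.79-fold lower (limma adjusted p = 0.0351). The other steA probe, measured on the flip array alone, read 0.15, near no change. Averaging every steA value per array gave -0.68 (flip) and -1.45 (flop), a mean of -1.07 ± 0.54 (SD, n = 2), which did not pass (limma adjusted p = 0.1005). There the flip value averages both probes and the flop value is the tested probe alone. That SD and p-value therefore also hold the difference between probes. The decrease of steA thus rests on 1 of its 2 probes with a value.

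ImeB is a protein kinase that restrains sexual development in light. Its probe read 1.55 (flip) and 1.69 (flop). The mean of 1.62 ± 0.10 (SD, n = 2) corresponds to 3.07-fold higher (limma adjusted p = 0.0351), at rank 102 from the top. Along the order of means of the tested probes, flbC, esdC, steA and abaA had ranges that did not overlap, from the lowest upward. The tested probes of medA and imeB, the highest, were likewise apart. With the other steA probe (0.15, flip array) included, the steA range takes in that of abaA. With the other medA probe (-1.73, flip array) included, the medA range takes in those of abaA and the tested steA probe.

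**Figure D2:**
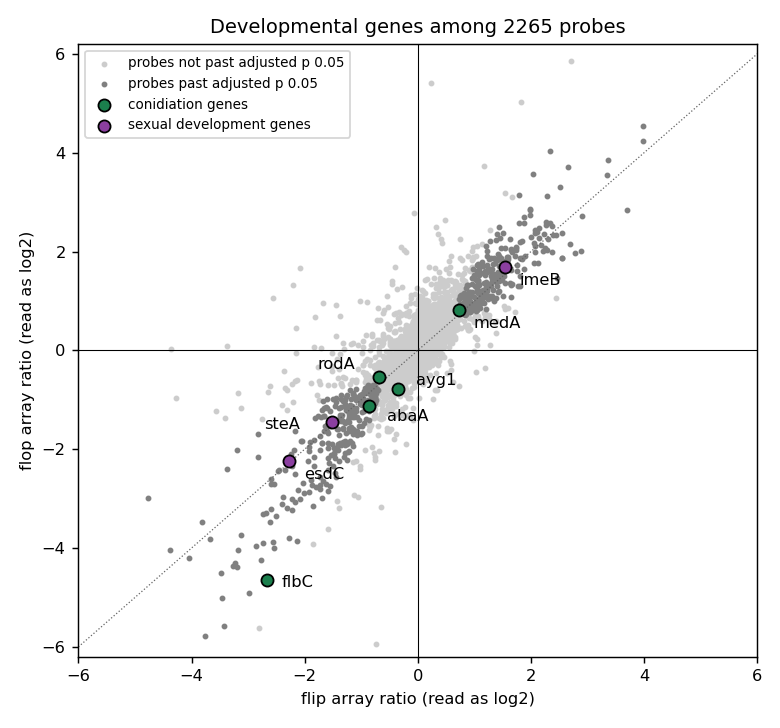
Flip ratio (horizontal axis) against flop ratio (vertical axis), both read as log2, for the 2265 probes with both values; the dotted line marks equality. Pale grey probes did not pass an adjusted p of 0.05 by limma, dark grey probes did, and large points are the conidiation and sexual genes. The 3 sexual genes lie close to the line and flbC lies below it, at -2.66 and -4.64, in the deposited signs.

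Probes assigned to the same gene often disagreed on this array, and medA and steA belong to the wider-spread pairs. On the flip array, 434 genes had more than 1 probe with a value, giving 659 pairs, in which the median absolute difference was 0.75. The steA probes differed by 1.66 and the medA probes by 2.46, and 117 and 43 of the 659 pairs, respectively, differed at least as much. Opposite signs were found in 46.7% of pairs. Flip values centred near 0, with medians of -0.02 (probes with both values) and 0.12 (probes with a flip value alone). Unrelated probes would therefore differ in sign about as often as they share it, and same-gene pairs came close to that. No pairs of probes from different genes were compared, so the size of the differences cannot be placed against that of unrelated probes. For flbC, abaA, ayg1, esdC and imeB the array holds 1 probe each, so no such check between probes exists for them. The direction given for each of these genes rests on that probe alone. How well each probe reports the gene it is assigned to was not tested.

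**Figure D3:**
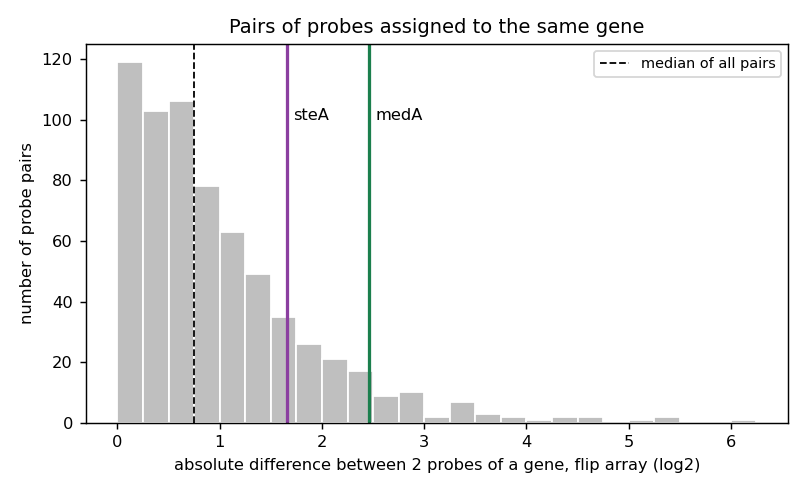
Number of probe pairs (vertical axis) by the absolute difference of the flip-array ratios, on the log2 scale, between probes assigned to the same gene (horizontal axis), for 659 pairs. The dashed line is the median, 0.75, and the coloured lines mark the steA pair at 1.66 and the medA pair at 2.46, both to its right.

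Other genes of these routes were looked up in 3 lists of symbols. Of 71 listed symbols, 17 were on the array, with 22 probes, of which 8 had both values, 7 a flip value alone and 7 none. Of the 8 probes tested, 2 passed higher and 1 lower by limma, or 3 of 8 against 24.6% of all probes, and their median was 0.20.

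Among upstream signalling, light and velvet regulators, 6 probes of 5 genes were tested. Both rgsA probes rose. RgsA is a regulator of G protein signalling that damps the GanB pathway. Its first probe read 1.08 (flip) and 1.05 (flop), a mean of 1.07 ± 0.02 (SD, n = 2; limma adjusted p = 0.0369). Its other probe read 0.76 (flip) and 1.13 (flop), a mean of 0.95 ± 0.26 (SD, n = 2; limma adjusted p = 0.0499). Under robust moderation its adjusted p by limma was 0.0528. The rgsA probes agreed in sign on both arrays. Those of medA could be compared on the flip array alone and differed in sign there.

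The gene pkaC, by its symbol a catalytic subunit of protein kinase A, fell by its tested probe (limma adjusted p = 0.0351). That probe read -2.23 (flip) and -2.34 (flop), and another, on the flip array alone, read -0.52, a difference of 1.71 on that array. Averaging every pkaC value per array gave a mean of -1.86, which did not pass (limma adjusted p = 0.0656). The light-dependent regulator gene veA was at 0.57 ± 0.19 (SD, n = 2; limma adjusted p = 0.0914). The fluffy gene flbB was at -0.32 ± 0.10 and the Ras gene rasA at -0.16 ± 0.21 (SD, n = 2 each), and neither passed. Of the other fluffy genes, flbD read 0.26 and fluG -0.27 on the flip array alone and flbA was empty, so no other flb gene with a value was near the flip value of flbC. On that array alone the G protein beta subunit gene sfaD read -1.66.

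Of 9 probes for conidiophore development and conidium structure, 6 were empty on both arrays, against 13.6% of all probes. These were the probes of the spore laccase gene yA, the hydrophobin gene dewA, and stuA and apsA. The gene wetA, which acts in conidial wall maturation, read 0.26 (flip) and 0.92 (flop), a mean of 0.59 ± 0.47 (SD, n = 2; limma adjusted p = 0.156). The gene apsB, which acts in nuclear migration, was at -0.37 ± 0.30 by its tested probe (SD, n = 2; limma adjusted p = 0.222). Another apsB probe read 0.20 on the flip array alone, where the tested probe read -0.15. Only 2 probes in this list were tested, and neither passed by limma, with 0 at an unadjusted p under 0.05. Over all 2265 probes 24.6% passed, so a count from 2 probes says little about the list. Of the sexual development list, mpkB, a MAP kinase gene, read 0.50 and nsdD, a GATA factor gene required for the sexual cycle, read 0.01, both on the flip array alone and therefore untested.

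**Figure D4:**
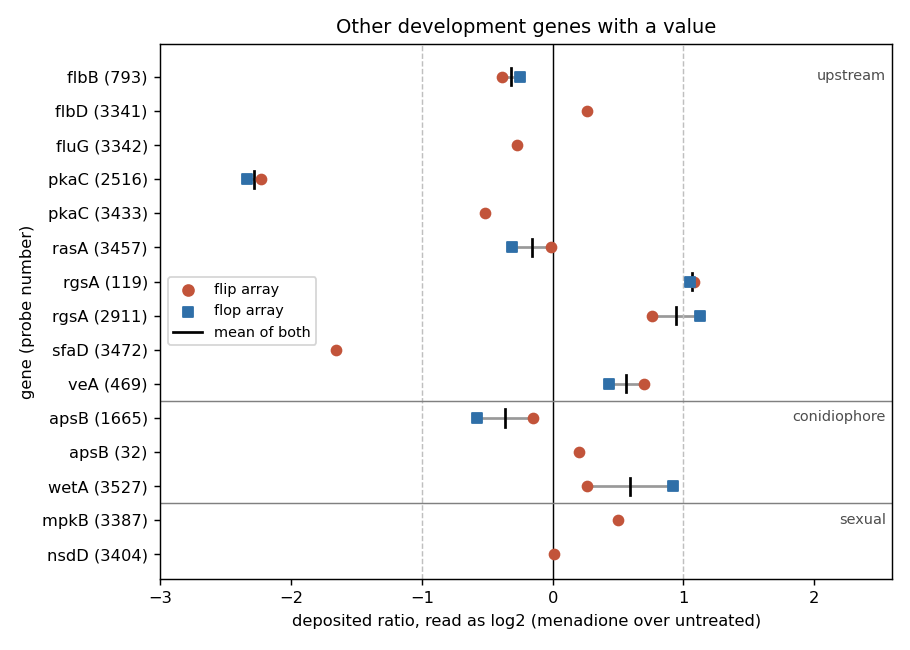
Ratios, read as log2 of menadione over untreated (horizontal axis), of the 15 probes of other listed development genes that had a value (vertical axis, probe number in brackets). Circles are the flip array, squares the flop array, ticks the mean of both, and dashed lines mark 2-fold. Both rgsA probes lie near 1 and the tested pkaC probe near -2.29. With the flop sign turned, the means of pkaC, rasA, apsB, wetA and the second rgsA probe would change sign.

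The labelled material is mycelium, and markers of conidiophores and conidia were read by symbol only. Of 14 marker probes for 8 genes, 7 were empty on both arrays, 2 had a flip value alone and 5 had both values. Over all 3533 probes these shares were 13.6%, 22.2% and 64.1%, and an empty cell gives no level. Of the 5 marker probes with both values, that of abaA fell, or 1 of 5 against 12.4% of the 2265 probes called lower. Those of ayg1, rodA, wetA and the conidial catalase gene catA did not pass, with means from -1.38 (catA) to 0.59 (wetA). The catA probe passed after scaling both columns to equal spread (limma adjusted p = 0.0143), and other catA probes read 0.13 and -0.42 on the flip array only. For Hülle cells, the nurse cells of the fruiting body, and cleistothecia, 3 of 7 marker symbols were on the array, steA, esdC and nsdD. These markers share members with the genes described, so they give no separate measure of how many spore-bearing structures the cultures held. The part of such structures in the ratios was not tested.

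With the 2 deposited values as the pattern, the nearest probe with a symbol was sought for each member among 274 others, by Euclidean distance on the log2 scale. For esdC it was pkaC (distance 0.12), at -2.23 and -2.34, and for steA it was hemA (0.21). The nearest to flbC was rpp1, at a distance of 0.41 the farthest of the 8. For imeB it was lcp5 (0.24), for abaA chiA1 (0.06), for medA sac6 (0.03), for rodA abd1 (0.08) and for ayg1 hsp90 (0.08). With 2 values a probe, such nearness is a description of position among the ratios only.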

How the data were processed

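Per the labels and the design text, the authors read the slides on a GenePix 4000B, computed ratios in GenePix Pro 3.0 and applied LOESS by block in SAS for Windows version 8. The values were deposited as a series matrix without a stated base, direction or centring, and were read as log2 ratios: they take both signs and centre near 0. The sources used here do not give spot averaging, background correction or the rule for empty cells. Intensities were not used here, so the signal over background is unknown.

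Probes were named by the platform annotation (2779 with 1 gene, 754 unnamed, 0 with several), and all 2779 gene IDs and the symbols of the 13 member probes matched RefSeq assembly ASM1142v1. The build behind the clones is not given, so no coordinates are printed.

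The deposited ratios were set against 0 by limma 3.58.1 under R 4.3.3 (lmFit, eBayes, Benjamini-Hochberg, threshold 0.05) over the 2265 probes with both values. Each probe had 1 residual degree of freedom beside a prior of 1.95 degrees of freedom (variance 0.0538). The procedure was run on simulated independent normal values without dye, culture or probe assignment effects, so that run does not cover such effects here. Probes with a flip value alone were given untested. Errors are SDs over 2 arrays. Where every value of a gene was averaged per array, they can also hold differences between probes. Alternatives were centring, scaling, averaging of probes, moderation, the filter, the thresholds, the flop sign, the logarithm base and single arrays. All 9 members were named, then listed genes with the largest means. Members and lists were chosen with earlier results of these data known.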

Additional observations from a re-analysis of the deposited data

How the results depend on the processing

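Against 6 members and 557 of all probes called, the counts were 6 and 888 with arrays scaled to a common spread, 4 and 277 with probes of a gene averaged, 3 and 305 with probes valued on at least 1 array kept, and 7 and 951 at an adjusted p under 0.10. By limma at 0.01 they were 0 and 0 (7 and 1035 unadjusted under 0.05), without moderation 0 and 0 (4 and 390), and with every probe of a gene averaged per array, chosen after seeing the data, 0 and 0 (6 and 589). With the flop sign turned they were 0 and 0 by limma (0 and 2 unadjusted). Averaging probes of a gene lost flbC (adjusted p = 0.0552) and medA (0.0507), and the fit with single-array probes also lost abaA (0.0549). Centring and robust moderation kept all 6. The 4 members past the 2-fold limit on both arrays numbered 2 under a 3-fold limit, 6 under a 1.5-fold limit, 6 with values read as natural logarithms (abaA and medA added) and 0 with the flop sign turned, and were 4 to 5 on a single array. Turning the flop sign reversed abaA to 0.14, medA to -0.045, ayg1 to 0.22, imeB to -0.07, flbC to 0.99, apsB to 0.22, pkaC to 0.055, rgsA's second probe to -0.19, catA to 0.57, rasA to 0.15 and wetA to -0.33. No other alternative run reversed a member or listed gene; genes named only as neighbours or nearest patterns were not refitted. Scaling to a common spread added catA (-1.31, adjusted p = 0.0143). The cause of these changes was not tested. Each ratio already pairs menadione and control RNA within an array. No further pairing was possible because both arrays form 1 group of ratios.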

Other observations

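By gene order in assembly ASM1142v1, few direct neighbours of the 9 genes had a probe on the array. The gene after abaA is mrd1, and its probes had means of 0.07 and -0.41, neither of which passed (limma adjusted p = 0.737 and 0.118), whereas abaA was at -0.995. The gene after medA is ANIA_10796, with a probe at 0.33 that did not pass (limma adjusted p = 0.164) and another at 0.98 that did (limma adjusted p = 0.0396). Both were positive on both arrays, as were 969 of the 2265 probes with both values. The tested medA probe, at 0.78, was also positive, and the other medA probe read -1.73 on the flip array. The gene before ayg1, ugd2, was empty on both arrays. Differences between members and neighbours were not tested.

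Among the conidiation members, the flop value lay farther from 0 than the flip value for 4 of 5 tested probes, and among the sexual members for 1 of 3. Over all 2265 probes the share was 62.0%.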
